A study of Mus musculus with 15 samples.

Results

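Progress through the cell cycle was read in microglia, which are the macrophages that live in brain tissue, from the transcripts of 44 cell cycle and DNA replication genes. The 44 genes were taken from a fixed list of symbols, each matched to the gene name in all 3 deposited tables of read counts, out of 24421 genes in each table. They were divided into 20 genes of DNA synthesis and 24 genes of mitosis. Both sets were listed by function and not by their values. In the GENCODE M21 annotation (GRCm38) the 44 genes lie on 17 chromosomes, all are protein-coding, and 15 overlap a gene on the other strand, whose reads could be counted with them. The libraries are bulk RNA-seq of cells sorted from the forebrain as CD45int CD11bint, so more cycling cells and more of these transcripts per cycling cell cannot be told apart.

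Stroke was modelled in male mice of 8 to 24 weeks by a transient block of the middle cerebral artery (MCAO), released after 60 minutes. Wild-type C57BL/6J mice gave 1 library after sham surgery, which omitted the block, and 1 library each on days 1, 6, 14 and 28 after MCAO. Igf1-Egfp transgenic mice, which carry an EGFP reporter for the growth factor gene Igf1, gave 1 EGFP-negative and 1 EGFP-positive library on each of days 6 and 14. For the Yy1 comparison on day 6 after MCAO, 3 libraries came from Cx3cr1-CreER;Yy1flox/flox mice, in which Cre from the Cx3cr1 locus can remove the transcription factor gene Yy1, and 3 from Yy1flox/flox controls that carry the same floxed alleles. The labels name the 6 Yy1 libraries biological replicates. How many mice each library pooled, and how the CreER was activated, are not given in the sources used here. CreER driven by Cx3cr1 is active in microglia and in other Cx3cr1-expressing myeloid cells.

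The libraries held 16.79 to 52.62 M counts (M, 1e6) in the time course and day 6 reporter table, 23.11 and 24.55 M in the day 14 reporter table and 10.53 to 13.94 M in the Yy1 table. The 3 tables were scaled separately, and levels were compared only within a table. The day 28 library had the fewest genes with a count (9886), against 16009 in sham, and the day 14 wild-type library had 11823. In the tables of whole counts, 68.7 to 90.9% of all counts from 1 to 20 were even numbers, against 45.4 to 49.5% in the Yy1 table, so intervals from counting error are too narrow there. Microglial markers were present in every library, but their summed level was 23807 CPM (counts per 1e6 counts, TMM-scaled) in sham and 5038, 11317, 6805 and 11994 CPM on days 1, 6, 14 and 28. Igf1 itself stood at 813 CPM in the EGFP-positive and 49.5 CPM in the EGFP-negative library of day 6, and at 33.5 and 11.1 CPM on day 14.

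A cell that enters the cycle passes from G1 into S phase, when it copies its DNA, and then through G2 into mitosis. In G1 the MCM helicase is loaded at origins by Cdc6 and Cdt1, and E2F transcription factors switch on the genes of S phase. Genes of mitosis are expressed later, in G2 and M, and many are kept silent in resting cells by the DREAM complex, which binds a short promoter element called CHR. Microglia divide rarely in the healthy adult brain and proliferate after injury.

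The promoters of 36 of the 44 genes were found in a RefSeq promoter table (GRCm38.p6), 17 of DNA synthesis and 19 of mitosis, and the 250 bases before each start were searched on both strands for 4 motifs. The motifs were an E2F word (TTTGGCGC, TTTCCCGC, TTTGCCGC or TTTCGCGC), the CHR (TTTGAA or TTCGAA), the CCAAT box (CCAAT) and a YY1 word (AANATGGC). None of these words contains another. The mitotic promoters printed next are those of Top2a, Mki67, Ccnb2 and Kif11, shown because they pair CCAAT boxes with a CHR. Capitals mark every match to any of the 4 motifs, and each sequence runs 5′ to 3′ in the direction of the gene.
Top2a: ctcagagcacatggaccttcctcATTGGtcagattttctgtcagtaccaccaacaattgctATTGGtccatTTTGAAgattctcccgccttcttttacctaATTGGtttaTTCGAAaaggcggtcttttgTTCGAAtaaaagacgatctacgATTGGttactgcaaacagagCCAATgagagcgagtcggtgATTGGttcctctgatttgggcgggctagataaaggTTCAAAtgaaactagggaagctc
Mki67: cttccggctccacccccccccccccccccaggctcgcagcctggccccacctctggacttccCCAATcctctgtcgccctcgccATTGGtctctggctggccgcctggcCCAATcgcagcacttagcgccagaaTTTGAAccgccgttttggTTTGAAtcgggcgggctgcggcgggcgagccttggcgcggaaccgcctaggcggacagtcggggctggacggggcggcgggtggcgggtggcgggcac
Ccnb2: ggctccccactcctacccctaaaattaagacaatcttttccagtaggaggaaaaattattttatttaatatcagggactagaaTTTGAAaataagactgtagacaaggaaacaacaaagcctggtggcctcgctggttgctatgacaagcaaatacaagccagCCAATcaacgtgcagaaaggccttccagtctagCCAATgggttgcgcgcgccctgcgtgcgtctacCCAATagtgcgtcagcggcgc
Kif11: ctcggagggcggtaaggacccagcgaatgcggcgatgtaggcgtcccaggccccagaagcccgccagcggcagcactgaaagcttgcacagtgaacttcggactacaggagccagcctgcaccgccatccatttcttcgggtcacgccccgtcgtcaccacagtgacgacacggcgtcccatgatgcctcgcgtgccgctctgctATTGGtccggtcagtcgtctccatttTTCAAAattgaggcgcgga

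The windows lie at Top2a chr11:99024190-99024439 (minus strand), Mki67 chr7:135716380-135716629 (minus strand), Ccnb2 chr9:70421555-70421804 (minus strand) and Kif11 chr19:37376132-37376381 (plus strand). Top2a held 4 CHR matches, the one nearest to the start beginning 23 bases before it. In Kif11 the CHR began 19 bases before the start and the CCAAT box 45 bases before it. Of the 19 mitotic promoters, 42.1% held both a CCAAT box and a CHR, against 17.6% of the 17 DNA synthesis promoters and 5.89% of the promoters of 17224 genes in the tables. The CCAAT box alone was found in 89.5% of mitotic, 64.7% of DNA synthesis and 35.9% of all promoters. A match describes these letters only and does not show that a factor binds.

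The DNA synthesis promoters of Mcm2, Mcm5 and Mcm6, subunits of the replicative helicase, and of Dna2, one of the genes called in the Yy1 comparison, are printed next.
Mcm2: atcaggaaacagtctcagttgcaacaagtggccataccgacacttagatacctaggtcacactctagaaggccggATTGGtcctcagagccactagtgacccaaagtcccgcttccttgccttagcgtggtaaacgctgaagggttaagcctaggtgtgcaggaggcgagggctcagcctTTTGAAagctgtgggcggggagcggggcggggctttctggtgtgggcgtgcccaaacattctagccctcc
Mcm5: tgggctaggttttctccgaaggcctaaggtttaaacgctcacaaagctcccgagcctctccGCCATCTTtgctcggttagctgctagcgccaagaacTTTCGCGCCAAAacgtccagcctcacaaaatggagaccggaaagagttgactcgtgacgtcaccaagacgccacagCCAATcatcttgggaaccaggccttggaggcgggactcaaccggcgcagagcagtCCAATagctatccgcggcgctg
Mcm6: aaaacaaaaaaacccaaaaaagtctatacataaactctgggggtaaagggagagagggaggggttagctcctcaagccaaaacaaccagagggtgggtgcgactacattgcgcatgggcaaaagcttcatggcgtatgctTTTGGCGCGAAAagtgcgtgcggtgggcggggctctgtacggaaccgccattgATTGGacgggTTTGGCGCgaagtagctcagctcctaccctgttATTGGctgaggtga
Dna2: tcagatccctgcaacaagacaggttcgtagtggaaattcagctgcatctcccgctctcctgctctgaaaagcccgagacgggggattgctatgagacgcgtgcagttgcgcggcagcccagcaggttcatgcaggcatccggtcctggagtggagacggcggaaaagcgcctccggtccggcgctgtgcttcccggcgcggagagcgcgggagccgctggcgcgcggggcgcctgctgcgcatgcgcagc

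These windows lie at Mcm2 chr6:88898781-88899030 (minus strand), Mcm5 chr8:75109259-75109508 (plus strand), Mcm6 chr1:128359706-128359955 (minus strand) and Dna2 chr10:62946779-62947028 (plus strand). Mcm2 held a CCAAT box and a CHR, the pairing seen in the mitotic promoters printed before it. Mcm6 held 3 E2F matches and Mcm5 held 2, in each case including a pair that overlap on opposite strands. E2F words were found in 23.5% of DNA synthesis promoters, 5.26% of mitotic promoters and 2.34% of all promoters. The YY1 word was found in the windows of Mcm5, Rrm1, Hmgb2 and Bub1, which makes 17.6% of DNA synthesis and 5.26% of mitotic promoters against 3.88% of all. Neither Dna2 nor Pcna, the 2 genes called in the Yy1 comparison, held it. The Pcna window overlaps annotated exons and is not printed, and the Dna2 window takes in 3 bases of its own exon. The windows of E2f1 and Mcm7 lie wholly within their own annotated exons, and those of Nusap1 and Prc1 within exons of other genes. All of these are counted in the percentages.

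In the wild-type time course, the summed level of the mitotic genes was highest on day 6. Summed over the 24 mitotic genes, the level was 64.2 CPM in the sham library, then at 133 (day 1), 763 (day 6), 286 (day 14) and 373 CPM (day 28). Mki67 made up 296 CPM of this sum on day 6 and 217 CPM on day 28, where 16 of the 24 genes were at 0. The 20 DNA synthesis genes summed to 518, 697, 739, 701 and 1097 CPM in the same libraries, a sum led by Pcna and Hmgb2. With 1 library per day there is no replicate spread to set these differences against, and none was tested. Ratios were taken as log2 of TMM-scaled CPM plus 1, and a gene was counted as different when its ratio passed a log2 size of 2 and it reached 20 CPM in either library.

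**Figure D1:**
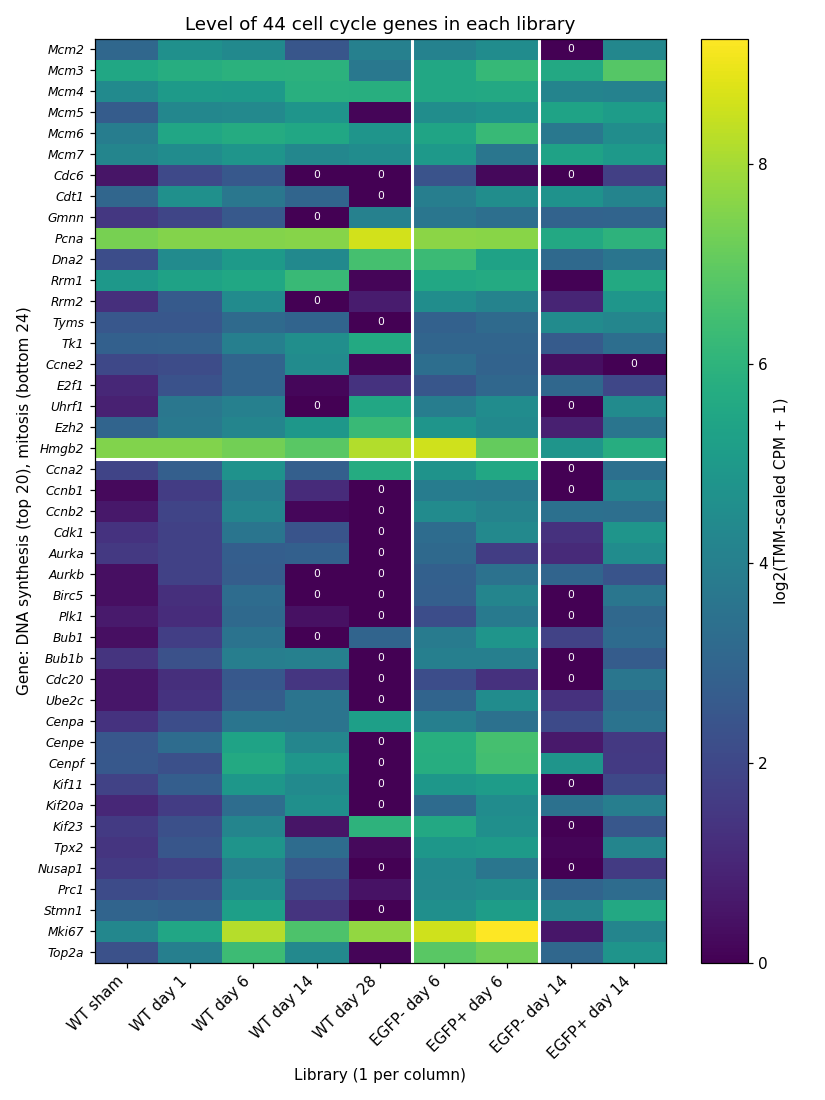
Level of each of the 44 genes (rows: DNA synthesis above the white line, mitosis below) in the 9 wild-type and reporter libraries (columns), as log2 of TMM-scaled CPM plus 1; a white 0 marks a library with no count. The day 6 columns are high for nearly all mitotic rows, and the day 28 column holds 19 zeros beside high values of Mki67, Kif23, Ccna2 and Cenpa. Vertical white lines separate the wild-type, day 6 reporter and day 14 reporter libraries, and colours are not comparable between the day 14 reporter columns and the rest.

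On day 1 the median log2 ratio to sham was 0.66 for DNA synthesis genes and 0.81 for mitotic genes, against -0.0014 for the 7203 genes that reached 20 CPM. In all comparisons of 1 library with another, the set medians take in every gene of the set at any level. The median of all genes takes in only those that reached 20 CPM, as 10 of 20 DNA synthesis and 1 of 24 mitotic genes did on day 1. Of the 11 cell cycle genes that reached 20 CPM, 1 was past the size rule, and it was higher (Dna2), where 5.59% of all genes considered were higher and 2% lower. On day 6 the medians were 1.12 for DNA synthesis and 2.60 for mitosis, against -0.09 for all genes considered. All 24 mitotic ratios to sham were above 0 on day 6, from 1.24 for the spindle kinase Aurka to 4.03 for Top2a. There 11 of 19 genes were past the rule and higher (9 of 9 mitotic and 2 of 10 DNA synthesis genes), where 6.25% of all genes considered were higher and 0.0846% lower. All 11 reached 20 CPM on day 6 and not in sham, so the minimum fixed their direction and the count is a description only. Between day 1 and day 6, 8 genes were past the rule, all mitotic and higher on day 6, against 2.25% of all genes considered higher and 1.6% lower, while the DNA synthesis median was 0.34. Of these 8, 7 reached 20 CPM on day 6 alone (all but Mki67), which again fixed their direction. With a pseudocount of 5 CPM, 3 were higher on day 6 than on day 1.

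The markers of other cells moved with these libraries. Monocyte markers summed to 61.3 CPM in sham and 1592, 1441, 2123 and 1915 CPM on days 1, 6, 14 and 28, with none of 7 at 0. These sums were mostly Fn1 except on day 28, and without Fn1 the other 6 summed to 16.1, 449, 80.3, 28.3 and 1158 CPM. Neutrophil markers summed to 46.5, 2125, 380, 11.0 and 2365 CPM, with 1 of 7 at 0 on day 6, 4 on day 14 and 2 on day 28. Endothelial and mural markers summed to 209, 358, 2814, 5054 and 30.6 CPM, and all 8 were past the size rule on day 6 and on day 14, with none at 0. Their part in the wild-type values was not tested. In the EGFP-negative and EGFP-positive libraries of day 6, from the same table, endothelial and mural markers summed to 511 and 415 CPM. The mitotic genes summed to 930.0 and 1332 CPM there, and neutrophil markers to 10570 and 91.6 CPM. These 2 libraries came from other mice, and the part of any of these cells in the mitotic sums was not tested.

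**Figure D2:**
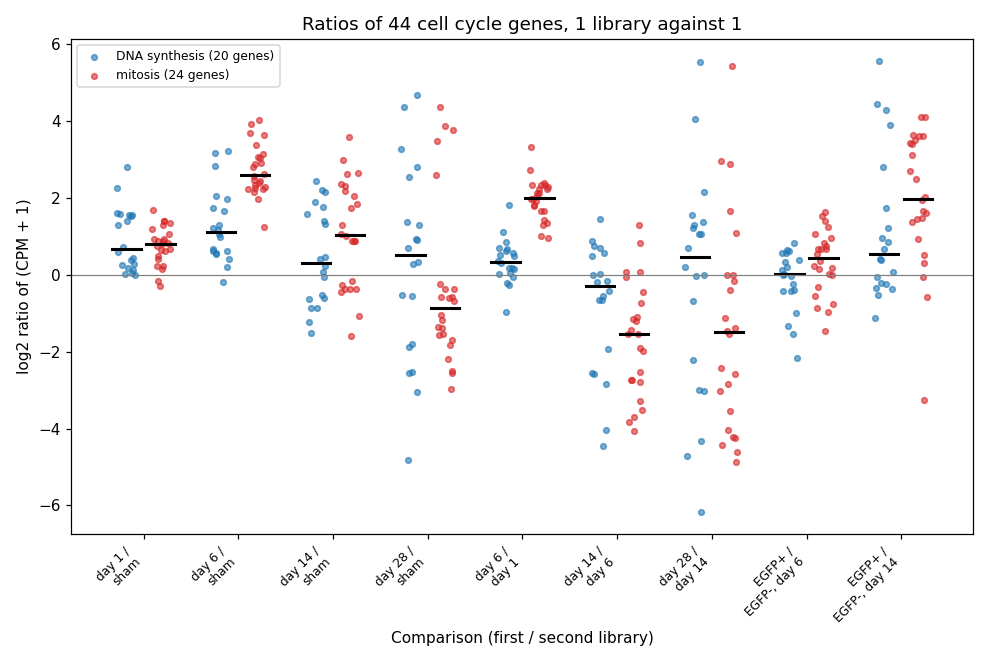
Log2 ratio of TMM-scaled CPM plus 1 (vertical axis) for each of the 44 genes in 9 comparisons of 1 library with another (horizontal axis), with DNA synthesis genes in blue, mitotic genes in red and the set median as a black bar. The mitotic points all lie above 0 for day 6 against sham and for day 6 against day 1, and both sets spread widely in the comparisons with days 14 and 28.

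Among the DNA synthesis genes, the MCM helicase subunits were higher on days 1 and 6 than in sham by up to a log2 ratio of 1.75, and none of the 6 passed the size rule there. Mcm6 stood at 14.2 CPM (sham), 43.9 (day 1), 50.2 (day 6), 44.7 (day 14) and 27.6 CPM (day 28). Mcm2 was at 7.59, 24.3, 20.1, 4.57 and 15.5 CPM in the same order. Mcm3, the most abundant subunit per length on day 6, was at 44.7, 53.4, 59.9 and 60.0 CPM up to day 14 and at 12.1 CPM on day 28. Mcm5 was at 5.40, 18.6, 19.3 and 27.6 CPM up to day 14 and at 0.0878 CPM, which is 2 counts, on day 28. The helicase subunits act as 1 ring, and their levels did not keep a common ratio over the libraries.

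Of the licensing genes, only Cdt1 reached 20 CPM in a wild-type library, on day 1. Cdt1, which loads the MCM ring, was at 7.33 CPM in sham, 23.9 on day 1, 11.8 on day 6 and 7.07 on day 14, and was at 0 on day 28. Its partner Cdc6 did not exceed 4.91 CPM in the wild-type libraries and was at 0 on days 14 and 28. Gmnn, the inhibitor of Cdt1, was at 1.84, 2.87, 4.96, 0 and 15.7 CPM. A count of 0 allows up to 0.163 CPM in the day 14 library and 0.132 CPM in the day 28 library, if 3 counts are taken as the limit, which covers counting error only.

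At the replication fork, Pcna, the sliding clamp, was the most abundant of the 44 genes per length on day 6, at 77.9 CPM per kb of exon. Its level was nearly constant at 162, 184, 187 and 189 CPM up to day 14 and was 395 CPM on day 28. Dna2, a nuclease and helicase that trims Okazaki fragments, was at 3.54 CPM in sham and at 20.8, 31.6, 19.8 and 92.1 CPM on days 1, 6, 14 and 28. All 4 days after MCAO were above sham, and the day 6 ratio was 8.92-fold (95% exact Clopper-Pearson interval 7.66 to 10.4, counting error only).

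Of the genes that supply nucleotides, Rrm2, the regulated subunit of ribonucleotide reductase, was at 1.35 CPM in sham, 5.19 on day 1 and 20.9 on day 6. It was at 0 on day 14 and at 0.614 CPM on day 28. Its partner Rrm1 was at 29.9, 39.4, 45.03, 76.9 and 0.0878 CPM, so the 2 subunits of this enzyme parted on day 14. Thymidine kinase Tk1 was at 6.07, 6.34, 14.97, 22.9 and 48.8 CPM, highest on day 28, where thymidylate synthase Tyms was at 0 after 4.66 to 8.13 CPM in the other 4 libraries.

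The S-phase regulators Ccne2, a cyclin of the G1 to S transition, and E2f1, an activating E2F, were below 7 CPM up to day 6. Ccne2 was then at 20.9 CPM on day 14 and 0.0878 CPM on day 28, and E2f1 at 0.109 and 1.58 CPM. Among chromatin genes, Uhrf1, which carries DNA methylation across replication, was at 0.806 CPM in the sham library, then at 11.7 (day 1), 15.3 (day 6), 0 (day 14) and 45.3 CPM (day 28). Ezh2, the methyltransferase of Polycomb complex PRC2, was at 6.99, 12.2, 17.4, 28.7 and 76.5 CPM, in ascending order over the 5 libraries. Hmgb2, a chromatin protein abundant in dividing cells, was at 179, 181, 156, 117 and 289 CPM.

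Among the mitotic genes, Mki67 was the most abundant per length on day 6, at 29.4 CPM per kb of exon, ahead of Stmn1 at 18.8 and Ccnb2 at 11.5. Mki67, which coats mitotic chromosomes and is the usual marker of proliferation, was at 18.7 CPM (sham), 43.6 (day 1), 296 (day 6), 101 (day 14) and 217 CPM (day 28). Top2a, the topoisomerase that untangles sister chromatids, was at 3.94, 14.9, 79.5, 19.4 and 0.0878 CPM. Mki67 lies at chr7:135689784-135716361 and Top2a at chr11:98992943-99024189, both on the minus strand. Both peaked on day 6, where Mki67 was 15.9-fold (14.9 to 16.9) and Top2a 20.2-fold (17.6 to 23.3) the sham level, with exact intervals for counting error only. On day 28 they parted, with Mki67 at 4948 counts and Top2a at 2 counts in the same library.

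The mitotic cyclins and Cdk1, the kinase they activate, drive entry into mitosis. Ccna2, the cyclin of S and G2, was at 2.77 CPM in sham and at 5.97, 25.2, 5.98 and 50.6 CPM on days 1, 6, 14 and 28. Ccnb1, a cyclin of mitotic entry, was at 0.187, 2.12, 14.3, 1.197 and 0 CPM. Ccnb2 was at 0.506, 2.70, 17.6, 0.109 and 0 CPM, and Cdk1 at 1.57, 2.44, 11.2, 4.35 and 0 CPM. All 4 were highest on day 6 among the first 4 libraries, and on day 28 Ccna2 was above its day 6 level while the other 3 were at 0.

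The mitotic kinases and the checkpoint genes were at or below 2 CPM in sham. On day 6 Aurka, Aurkb, Plk1 and Birc5, the survivin subunit that works with Aurkb, stood at 5.88, 5.63, 7.86 and 8.78 CPM. Bub1 and Bub1b, kinases of the spindle checkpoint, were at 10.5 and 14.6 CPM on day 6, and Cdc20 and Ube2c, which drive the anaphase-promoting complex, at 4.83 and 5.58 CPM. None of these 8 genes reached 20 CPM in the wild-type libraries, so none could pass the size rule, although all 8 log2 ratios to sham on day 6 were between 1.24 and 3.14. On day 28 Bub1 was at 6.85 CPM and the other 7 were at 0.

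Of the centromere genes, Cenpf was at 4.87 CPM in the sham library, then at 3.83 (day 1), 47.7 (day 6), 28.3 (day 14) and 0 CPM (day 28). Cenpe, the kinesin of the kinetochore, was at 4.65, 8.56, 40.7, 17.95 and 0 CPM. Cenpa, the histone variant that marks centromeres, was at 1.57, 3.55, 11.2, 10.8 and 36.4 CPM. The first 2 peaked on day 6 and Cenpa was highest on day 28.

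The spindle genes included Kif11, the motor that separates the poles, at 2.53, 5.77, 28.8, 20.7 and 0 CPM over the 5 libraries. Kif23, a motor of cytokinesis, was at 2.01, 3.73, 17.6, 0.435 and 61.6 CPM. Stmn1, which destabilizes microtubules, was at 6.88, 6.07, 36.1, 1.63 and 0 CPM. Of the 7 spindle genes, 4 reached 20 CPM on day 6 (Kif11, Tpx2, Prc1 and Stmn1), and none of these 4 did in sham. All 4 were past the size rule and higher than in sham, where 6.25% of all genes considered were higher and 0.0846% lower. The minimum fixed their direction. Kif20a, another motor of cytokinesis, was at 8.94 CPM on day 6 and 23.5 CPM on day 14, and Nusap1 was at 15.3 and 5.01 CPM on these days.

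After day 6 the 2 sets scattered. From day 6 to day 14 the median log2 ratio was -1.54 for mitotic and -0.30 for DNA synthesis genes. Of 24 genes considered, 3 were past the rule, and lower on day 14 (Rrm2, Prc1 and Stmn1), where 4.73% of all genes considered were lower and 4.46% higher. All 3 reached 20 CPM on day 6 alone. Against sham, 6 of 14 genes were past the rule and higher on day 14, where 12.9% of all genes considered were higher and 6.82% lower. All 6 were under 20 CPM in sham, so their direction followed from the minimum. They were Mcm5, Ccne2, Mki67, Kif11, Kif20a and Cenpf. The median ratios to sham were 1.04 for mitosis and 0.32 for DNA synthesis, and another scaling moved the median of all genes by 0.17 in this comparison.

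On day 28 the same library held some of the highest and some of the lowest values of the course. Of 15 genes considered, 8 were past the rule and higher than in sham (Tk1, Dna2, Uhrf1, Ezh2, Mki67, Ccna2, Kif23 and Cenpa) and 1 was lower (Rrm1), where 11.1% of all genes considered were higher and 15.2% lower. All 8 were under 20 CPM in sham, and the mitotic genes at 0 on day 28 were under 20 CPM in sham too and could not be counted as lower, so the balance of 8 to 1 was set by the minimum. At the same time 19 of the 44 genes were at 0, 16 of them mitotic. Zeros were frequent among all genes of this library too. Of genes at 5 to 20 CPM on day 6, 37.4% of all and 13 of 22 cell cycle genes were at 0 on day 28. Of genes at 20 to 50 CPM, 7.91% of all and 4 of 13 cell cycle genes were. Between day 14 and day 28, 4 genes were past the rule and higher on day 28 (Dna2, Uhrf1, Ccna2 and Kif23) and 7 lower (Mcm3, Mcm5, Rrm1, Ccne2, Kif11, Kif20a and Cenpf), where 14.6% of all genes considered were higher and 22.6% lower. Each of these reached 20 CPM in 1 of the 2 libraries alone. Only 5 mitotic genes had at least 10 counts in both the sham and the day 28 library, and their median ratio of 3.77 had the opposite sign to the median of all 24, -0.86.

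Dendritic cell markers summed to 457 CPM on day 28 and to between 6.34 and 16.4 CPM in the other 4 wild-type libraries, with 1 of 6 at 0 on day 28, and their part in the day 28 values was not tested.

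Between the Igf1 reporter states, few cell cycle genes were past the size rule on day 6. The mitotic genes summed to 1332 CPM in the EGFP-positive and 930.0 CPM in the EGFP-negative library, sums led by Mki67, and the DNA synthesis genes to 786 and 1031 CPM. Here a gene was counted when its log2 ratio passed 1 and it reached 20 CPM in either library. Of 29 genes considered, 2 were higher in the EGFP-positive library (Kif20a and Ube2c) and 2 lower (Hmgb2 and Mcm7), where 7.53% of all genes considered were higher and 11.9% lower. The median log2 ratio was 0.44 for mitotic genes and 0.01 for DNA synthesis genes, which became -0.046 when libraries were scaled by total counts. The 2 libraries of each day were not replicated, and no difference between them was tested. Scaled by total counts, 0 genes were past the rule and higher on day 6 and 4 lower.

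Single genes differed more. Mki67 was at 611 CPM in the EGFP-positive and 382 CPM in the EGFP-negative library of day 6, and Top2a at 150.3 and 118 CPM. Ube2c, the ubiquitin-conjugating enzyme of the anaphase-promoting complex, was at 21.9 and 6.85 CPM, and Kif20a at 21.6 and 8.47 CPM. Hmgb2 was at 132 CPM in the EGFP-positive and 387 CPM in the EGFP-negative library, and Mcm7 at 11.5 and 30.7 CPM. Dna2 was at 39.0 and 78.0 CPM, just inside a log2 ratio of 1 in size. Microglial markers summed to 6273 CPM in the EGFP-positive and 6549 CPM in the EGFP-negative library of day 6, with none of 8 at 0. Neutrophil markers summed to 91.6 and 10570 CPM in the same order, with 2 and 0 of 7 at 0. In the EGFP-negative library the neutrophil sum was thus above the microglial sum. Monocyte markers summed to 1509 and 4887 CPM, with none at 0. Dendritic cell markers summed to 3.71 and 239 CPM, with 4 and 0 of 6 at 0. The part of these other cells in the ratios was not tested.

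On day 14 the mitotic genes summed to 298 CPM in the EGFP-positive and 97.1 CPM in the EGFP-negative library, and the DNA synthesis genes to 525 and 306 CPM. Of 16 genes considered, 8 were higher in the EGFP-positive library (Mcm3, Rrm1, Rrm2, Uhrf1, Top2a, Cdk1, Aurka and Stmn1) and 1 lower (Cenpf), where 11.2% of all genes considered were higher and 10.9% lower. Of these 8, 7 (all but Mcm3) reached 20 CPM in the EGFP-positive library alone, which fixed their direction. Median log2 ratios were 1.98 for mitosis and 0.54 for DNA synthesis over every gene of each set, and 0.03 for all genes considered. Only 5 of 24 mitotic and 11 of 20 DNA synthesis genes were considered. Of the 24 mitotic ratios 21 were above 0.

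In the EGFP-positive and EGFP-negative libraries of day 14, Rrm1 was at 47.9 and 0.0393 CPM and Rrm2 at 27.8 and 0.942 CPM, so that both subunits of ribonucleotide reductase were below 1 CPM in the EGFP-negative library. Cdk1 was at 27.2 and 1.49 CPM, Aurka at 21.6 and 1.14 CPM and Top2a at 26.4 and 7.62 CPM. Mki67, at 17.3 and 0.471 CPM, did not reach 20 CPM. Cenpf went the other way, at 1.98 and 27.2 CPM. In the EGFP-negative library 12 of the 44 genes were at 0, which allows up to 0.118 CPM each, and 9 of these were mitotic (Ccnb1, Ccna2, Cdc20, Bub1b, Plk1, Kif11, Kif23, Birc5 and Nusap1), beside Mcm2, Cdc6 and Uhrf1. In the EGFP-positive library Ccne2 was at 0, and no other gene of the 44 was. Of all 24421 genes, 10892 had a count in the EGFP-negative and 12498 in the EGFP-positive library.

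The EGFP-negative library of day 14 also held few markers of other cells. Its neutrophil markers summed to 0.157 CPM with 6 of 7 at 0, its endothelial and mural markers to 23.8 CPM with 6 of 8 at 0, and its monocyte markers to 94.1 CPM with 4 of 7 at 0. The EGFP-positive library had 1084, 326 and 541 CPM, with 0, 1 and 1 at 0. Their part in the day 14 ratios was not tested. Microglial markers summed to 25400 CPM in the EGFP-positive and 28790 CPM in the EGFP-negative library. Over both days, 15 of 24 mitotic and 6 of 20 DNA synthesis genes were higher in the EGFP-positive library each time, with no minimum level set. Of all genes, 1553 of the 5658 that reached 20 CPM on both days were. The 2 counts are not alike, since only 5 of the 24 mitotic genes reached 20 CPM on day 14.

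**Figure D3:**
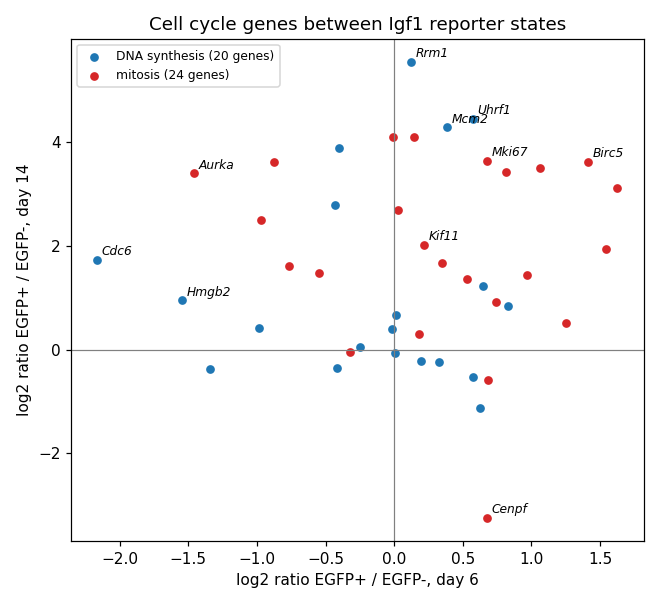
Log2 ratio of TMM-scaled CPM plus 1, EGFP-positive over EGFP-negative, on day 6 (horizontal axis) and day 14 (vertical axis) for each of the 44 genes, with DNA synthesis genes in blue and mitotic genes in red. Of the mitotic genes 15 lie in the upper right part of the plot, where both ratios are above 0, and the day 14 ratios reach further from 0 than the day 6 ratios.

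With 3 libraries per genotype, the Yy1 table allows a test. Yy1 transcripts themselves were at 75.9, 51.0 and 57.8 CPM in the Yy1flox/flox controls and at 32.4, 28.8 and 38.7 CPM in the Cx3cr1-CreER;Yy1flox/flox libraries. All deleted libraries were below all controls, with a log2 change of -0.88 ± 0.28 (SE, n = 3 per group) that did not pass edgeR's quasi-likelihood test after adjustment over all 12387 genes (adjusted p = 0.128). All 44 cell cycle genes entered the test. None was called higher and 2 were called lower, Pcna and Dna2, where 1.55% of all genes tested were higher and 1.05% lower. At an unadjusted p under 0.05, the same 2 of the 44 genes were found, against 14.1% of all genes tested. By DESeq2 and by limma-voom, 2 genes were lower and 0 higher as well. These methods called 5.43 and 3.88% of all genes in either direction.

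Pcna (chr2:132249162-132253314, minus strand) was at 348, 297 and 288 CPM in the controls and at 212, 183 and 191 CPM in the deleted libraries. The groups did not overlap, and Pcna fell by 0.67 on the log2 scale (SE 0.15, n = 3 per group, edgeR adjusted p = 0.0229). Dna2 (chr10:62947026-62974185, plus strand) was at 94.4, 71.6 and 80.4 CPM in the controls and at 32.6, 33.5 and 14.7 CPM in the deleted libraries. Dna2 fell by 1.61 (SE 0.32, n = 3 per group, edgeR adjusted p = 0.00928), and again no deleted library reached the lowest control. The Dna2 call was lost without control replicate 1 (edgeR adjusted p = 0.127). The Pcna call was lost without control replicate 1, 2 or 3 or deleted replicate 2 or 3, with edgeR adjusted p from 0.0535 to 0.2. The annotation names 2 Pcna pseudogenes, Pcna-ps1 and Pcna-ps2, whose reads the counting could not be shown to keep apart.

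**Figure D4:**
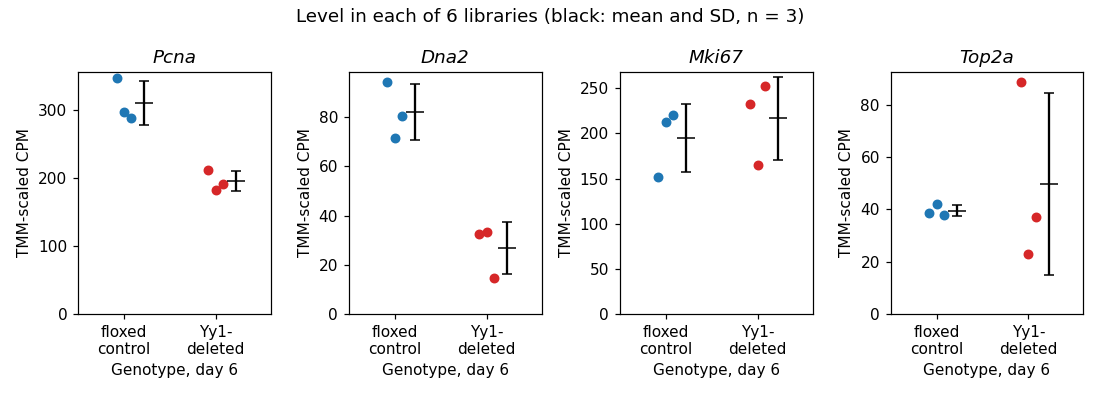
TMM-scaled CPM (vertical axes, each from 0) of Pcna, Dna2, Mki67 and Top2a in 3 floxed control libraries (blue) and 3 Yy1-deleted libraries (red) of day 6; black marks give the mean and SD, n = 3. The groups are apart for Pcna and Dna2 and overlap for Mki67 and Top2a.

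No mitotic gene was called between the genotypes. Their summed level was 411 to 560 CPM in the controls and 466 to 633 CPM in the deleted libraries. Of the 24, 12 fold changes were above 0 and 12 below, and the median log2 change was -0.05, against -0.02 over all genes tested. Mki67 was at 151, 213 and 221 CPM in the controls and 232, 165 and 252 CPM in the deleted libraries. Its log2 change of 0.16 had a 95% interval of -0.26 to 0.57 (edgeR adjusted p = 0.823). Top2a was at 38.5, 41.9 and 38.0 CPM and at 88.9, 23.0 and 37.1 CPM, so that deleted replicate 1 alone was high, and its interval was -0.50 to 1.17 (edgeR adjusted p = 0.808).

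The 18 DNA synthesis genes other than Pcna and Dna2 had log2 changes between -1.30 for Cdc6 and 0.90 for Ccne2, and none was called. Mcm6 was at 34.3, 37.2 and 34.6 CPM in the controls and 28.4, 29.1 and 56.9 CPM in the deleted libraries, with an interval of the log2 change of -0.61 to 0.84. Groups that did not overlap were found for 3 genes that were higher in the deleted libraries (Ezh2, Kif20a and Nusap1), against 9.45% of all genes tested. They were found for 7 that were lower (Pcna, Dna2, Tk1, Cdt1, Aurkb, Birc5 and Prc1), against 11.6%. The spread between replicates limits what could be seen. The median SD of log2 levels was 0.34 over the controls and 0.66 over the deleted libraries, and in deleted replicate 2 Cdc6, Birc5 and Prc1 were at 0, as was E2f1 in deleted replicate 3.

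The microglial markers moved with genotype in the same libraries. All 8 were called higher, with sums of 9666 to 10572 CPM in the controls and 16105 to 17596 CPM in the deleted libraries, none of them at 0. Monocyte markers summed to 877 to 1271 CPM and 616 to 740.0 CPM, with 2 of 7 called lower and 1 of 7 at 0 in deleted replicate 2. Their part in the Pcna and Dna2 changes was not tested.

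**Figure D5:**
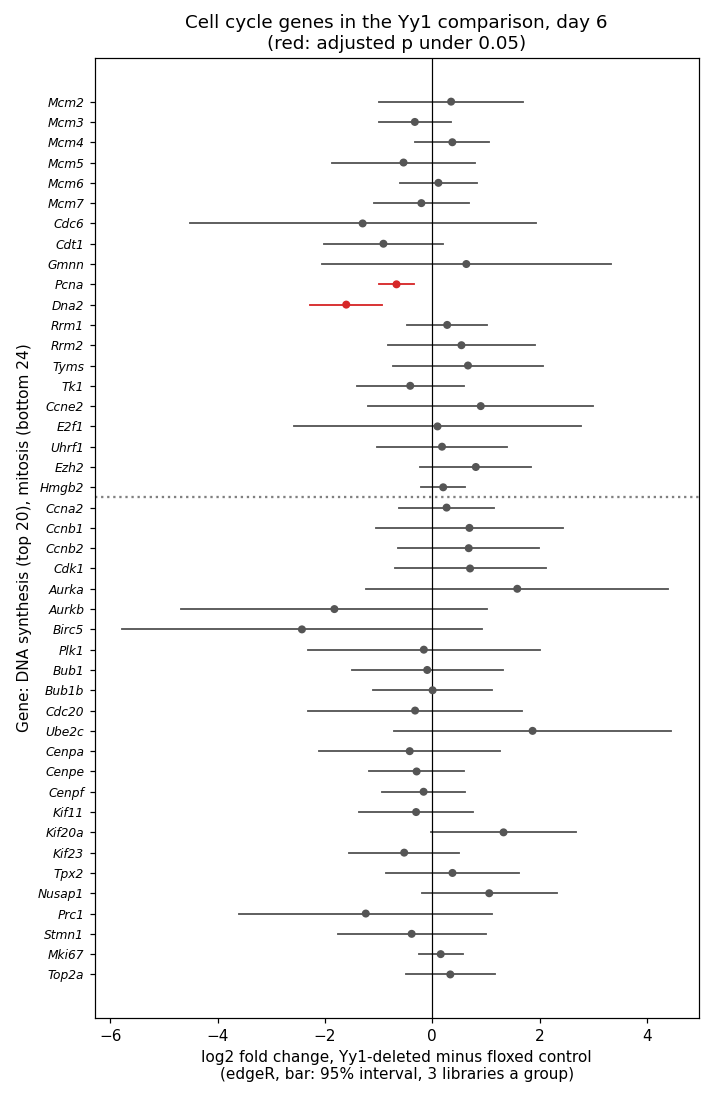
Log2 change, Yy1-deleted minus floxed control, with its 95% interval (horizontal axis) for each of the 44 genes (rows), from edgeR's quasi-likelihood fit of 3 libraries per genotype; red marks an adjusted p under 0.05, and the dotted line separates DNA synthesis genes above from mitotic genes below. The intervals of Pcna and Dna2 lie below 0 and the others span it.

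The rest of the cell cycle programme was described with 5 further lists. Of 41 measured mitotic genes outside the 24, 39 had ratios to sham above 0 on day 6, with a median log2 ratio of 1.84. Of these 41, 14 were considered and 3 were past the size rule and higher, where 6.25% of all genes considered were higher and 0.0846% lower: Casc5 and Hmmr, which act at the kinetochore and the spindle, and Racgap1, a regulator of cytokinesis. Casc5 was at 1.14 CPM in sham, 5.15 on day 1 and 30.7 on day 6. The 40 replisome genes, such as polymerases, origin recognition and clamp loader subunits, had a median ratio of 0.39. Of the 9 considered none was past the rule, and the highest ratio of all 40 was 2.89. Against sham, 1 of 11 considered was past the rule on day 14, Orc4, lower at 9.30 against 86.0 CPM. On day 28, 1 of 9 was, Orc2, lower at 0.0878 against 32.2 CPM. In these comparisons 6.82 and 15.2% of all genes considered were lower. On day 28, 19 of the 41 mitotic and 18 of the 40 replisome genes were at 0, in a library where 9886 of all 24421 genes had a count.

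Upstream of the cycle, the D-type cyclin Ccnd2 was past the rule and higher than in sham on days 1, 6, 14 and 28. Of 9 G1 cyclin and CDK genes listed, 7, 7, 7 and 6 were considered, and Ccnd2 alone was higher each time. Of all genes considered, 5.59, 6.25, 12.9 and 11.1% were higher. Cdk2 was past the rule and lower on day 14, at 2.94 against 20.2 CPM in sham, where 6.82% of all genes considered were lower. Ccnd2 was at 4.91 CPM (sham), 35.3 (day 1), 37.6 (day 6), 76.3 (day 14) and 29.3 CPM (day 28). On day 6 it was at 3.40 CPM in the EGFP-positive and 93.6 CPM in the EGFP-negative library, the libraries in which neutrophil and monocyte markers also differed. Its relative Ccnd1 was at 107, 80.4, 61.9, 106 and 141 CPM in the wild-type course. Of 18 E2F and DREAM genes, 9, 9 and 11 reached 20 CPM in the comparisons of days 1, 6 and 14 with sham. None of these was past the rule, although the highest log2 ratio of the list on day 6 was 2.77, in a gene below that minimum. On day 28, 1 of 8 considered was, E2f3, lower at 5.27 CPM against 85.0 CPM in sham, where 15.2% of all genes considered were lower.

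Among 15 CDK inhibitors and antiproliferative genes, Cdkn1a, which encodes p21, was at 9.82 CPM in sham and at 77.2, 28.1, 109 and 148 CPM on days 1, 6, 14 and 28. Gadd45b, a stress-induced gene, was at 4.59, 52.0, 21.4, 98.7 and 47.2 CPM in the same libraries. Over the list, 12 of 15 genes were higher on day 6 than on day 1 and 3 were lower, Cdkn1a and Gadd45b among them. The median log2 ratio was 0.27, against -0.01 for all genes considered. Only 7 of the 15 reached 20 CPM in either library, and none was past the rule. Between reporter states on day 6, 7 of the 15 were considered. Of these, 2 antiproliferative genes were past the rule, Btg1 and Btg2, both lower in the EGFP-positive library. Of all genes considered, 11.9% were lower and 7.53% higher. Btg1 was at 265 CPM in the EGFP-positive and 739 CPM in the EGFP-negative library, and Btg2 at 184 and 743 CPM. Neutrophil, monocyte and dendritic cell markers also differed between these libraries, and their part was not tested. In the Yy1 comparison edgeR called none of the replisome, other mitotic, G1, E2F and DREAM or inhibitor genes. Of the 39, 40, 9, 18 and 15 tested in these lists, 2, 2, 3, 2 and 2 had an unadjusted p under 0.05, against 14.1% of all genes tested. DESeq2 called 2 replisome, 2 G1 and 1 E2F and DREAM gene lower and 1 mitotic and 1 inhibitor gene higher, against 5.43% of the genes to which it gave an adjusted p.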

How the data were processed

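RNA from sorted microglia was sequenced in 15 libraries. Per the submitters' processing notes, the authors used STAR, featureCounts and edgeR with mm10 and GRCm38, with no versions or roles given, and strand settings are not given in the sources used here. The deposited tables of the wild-type course with the day 6 reporter libraries, and of the day 14 reporter libraries, hold whole read counts per gene with no normalization. The deposited Yy1 table holds estimated counts with no normalization (expected counts, by its values), since 3.55 to 4.75% of its values were not whole, and was rounded before the tests. The 25 rows with date-like names stayed in library sizes.

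Levels are CPM after TMM scaling. Comparisons of 1 library with another used log2 of CPM plus 1 and no test, and these ratios understate changes of low genes. The Yy1 groups (3 against 3) were fitted with edgeR 4.0.16 in R 4.3.3: filterByExpr, TMM, the quasi-likelihood F-test (two-sided, no block), and Benjamini-Hochberg adjustment over 12387 genes at 0.05. The p-values rest on the spread among 3 libraries a group. Alternatives used DESeq2 1.42.0, limma 3.58.1, other scalings and filters, and each replicate left out. The procedure was also run on simulated counts with the same dispersion in both groups, whereas the cell cycle genes varied more between the deleted libraries. No result rests on that run. Intervals on ratios of counts and limits for counts of 0 cover counting error only.

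The genes, lists, markers and tests were chosen with earlier results of these data known. Levels are given for up to 4 genes of each role with the highest mean over the time course, genes at 0 in a library, and genes called or past a size rule between reporter states or genotypes. From each further list up to 4 genes past the rule were taken, and others past it were not described. Gadd45a and Cdkn2c, both past the rule and higher on day 14 than in sham, are among those left out. Mcm5 was named after its values were seen.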

Additional observations from a re-analysis of the deposited data

How the results depend on the processing

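In the Yy1 comparison the number of genes called lower (2) was 0 to 2 when each library was left out in turn and 2 under every other alternative, and none was called higher. The labels do not say whether the replicate numbers pair these samples. Same-number correlations of deviations were -0.0076, -0.0479 and -0.0154, against -0.0281 to 0.0398 for other numbers. All are near 0, so they cannot decide whether the samples were paired. The fit with a replicate block called 2 lower and 0 higher. Signs of genes that were not called turned as follows. With limma-voom the log2 change was -0.084 for Mcm2, -1.14 for E2f1 and -0.13 for Bub1b, with total counts -0.0066 for E2f1 and -0.10 for Bub1b, and with the replicate block -0.069 for Bub1b. Leaving out 1 library also turned the sign of 17 genes that were not called, with log2 changes in these ranges: Mcm2 (-0.46 to 0.77), Mcm6 (-0.29 to 0.28), Mcm7 (-0.66 to 0.086), Rrm1 (-0.20 to 0.47), Rrm2 (-0.37 to 0.91), E2f1 (-0.67 to 0.79), Gmnn (-0.27 to 1.06), Uhrf1 (-0.042 to 0.38), Top2a (-0.39 to 0.68), Cdc20 (-2.12 to 0.16), Bub1 (-0.60 to 0.16), Bub1b (-0.54 to 0.26), Plk1 (-0.72 to 0.40), Cenpe (-0.73 to 0.027), Cenpf (-0.53 to 0.032), Cenpa (-1.11 to 0.083) and Stmn1 (-1.45 to 0.077).

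Counts past the size rule with 1 library per group moved with its settings. With a minimum of 5 CPM, the number higher became 2 for day 1, 25 for day 6 and 11 for day 14 against sham, and the number lower became 4 for day 28 against sham, 12 for day 14 against day 6 and 16 for day 28 against day 14. Between reporter states it became 5 higher on day 6, and 21 higher and 2 lower on day 14. With a pseudocount of 5 CPM, the number higher became 0 for day 1, 2 for day 14 against sham, 3 for day 6 against day 1 and 1 between reporter states on day 6. With the size rule at log2 1, it became 5 higher for day 1 and 11 for day 14, and 2 lower for day 28, against sham; 2 higher and 9 lower for day 14 against day 6; and 10 higher for day 28 against day 14. At log2 2, the reporter counts became 0 higher and 0 lower on day 6 and 5 higher on day 14. Scaling by total counts gave 0 higher and 4 lower between reporter states on day 6, where the DNA synthesis median became -0.046. Requiring at least 10 counts in both libraries, chosen after seeing the data, left 0 lower for day 28 against sham, and 2 higher and 1 lower for day 28 against day 14.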
